A study of Arabidopsis thaliana with 9 samples.

Results

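The genes described here encode xyloglucan endotransglucosylase/hydrolases (XTH) and expansins of Arabidopsis thaliana, protein families linked to the loosening of the plant cell wall. The members were given as a list of 38 loci, 22 XTH loci and 16 expansin loci, and were found in the count table by locus name. Of these 38, 35 had a row in the table, which holds 22155 loci. EXPA1, EXLA3 and EXPB3 were not analysed here. A filter on low counts left 33 members, 20 XTH and 13 expansin loci, among 13975 loci tested.

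Polyadenylated RNA was sequenced from rosettes of the wild type (Col-0), of a line overexpressing PP2-A5 (PP2-A5oe) and of a line mutated in PP2-A5 (pp2-a5), with 3 biological replicates of each, all under the control treatment at an age of 3 weeks. PP2-A5 is a lectin that also carries a TIR domain, and the study concerns its role in defence against a plant-feeding spider mite. The promoter of the transgene and the number of independent lines behind PP2-A5oe are not given in the labels. The library names of pp2-a5 begin with SALK, and the labels say no more on the mutation. The transcript of PP2-A5 itself was not analysed here. The tissue label says rosette, while the extraction protocol speaks of seedlings.

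Growing plant cells are held in by cellulose microfibrils set among other polymers such as xyloglucan, a branched glucan. XTH enzymes cut a xyloglucan chain and join the cut end to another chain, or in some members to water. Alpha-expansins let the wall creep without cutting any chain. XTH loci fall into groups I, II and III by sequence, and expansins into the alpha (EXPA), beta (EXPB), A-like (EXLA) and B-like (EXLB) families. Both families are best known for their part in cell expansion in growing leaves, hypocotyls and roots, and single members answer to touch, shade, brassinosteroid or wounding.

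Total counts were between 5408847 and 6196722 per library. The mitochondrial share of the counts was 0.0741% to 0.0878%, but 0.178% in Col-0 replicate 3 and 0.132% in PP2-A5oe replicate 2. Col-0 replicate 3 also stood apart from its replicates, with a chi-square per degree of freedom of 5.25 and 6.41 against 1.54 to 3.22 in the other pairs within a group. It was the highest Col-0 library for 23 of the 33 members tested. In PP2-A5oe, replicates 1, 2 and 3 were the highest for 14, 13 and 6 members, and in pp2-a5 for 17, 13 and 3. Such counts were not taken over all loci. Leaf markers with a row (LHCB2.1, LHCB3 and PSAD1) summed to 10340 to 12630 CPM per library, a CPM being a count per 1000000 of the scaled library total. Marker genes of the root, 10 loci, summed to 9.38 to 10.8 CPM in the wild type, 30.5 to 38.3 CPM in PP2-A5oe and 13.1 to 16.5 CPM in the pp2-a5 mutant. These sums were led by PRP3, with means of 4.70, 17.3 and 7.43 CPM, and LRX1, with means of 2.80, 8.33 and 3.56 CPM. Flower markers summed to 14.2 to 20.1 CPM over all libraries. In these bulk samples, fewer cells of a type and less RNA per cell cannot be told apart.

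Stretches of 250 bases before the annotated gene start are shown for 5 members with the results that follow, read 5′ to 3′ on the strand of the gene from the RefSeq sequence of build TAIR10.1. TCH4 and XTH25 are neighbours on chromosome 5 with unequal changes, XTH18 and EXLA1 were both higher in PP2-A5oe and share a motif, and EXPA8 had the largest fall of a member, in pp2-a5. Capitals mark matches to 4 motifs searched on both strands: CGCGTT, the core of the rapid stress response element; TTGAC, the core of the W-box of WRKY factors; CACGTG, the G-box; and CACATG, a form of the E-box. None of these motifs overlaps another in the stretches shown.
TCH4, chr5:23308681-23308930, minus strand: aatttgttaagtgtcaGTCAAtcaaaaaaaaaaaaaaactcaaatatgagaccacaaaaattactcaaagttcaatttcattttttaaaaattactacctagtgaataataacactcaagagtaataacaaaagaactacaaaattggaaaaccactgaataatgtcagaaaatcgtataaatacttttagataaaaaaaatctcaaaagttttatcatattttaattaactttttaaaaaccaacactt
XTH25, chr5:23306441-23306690, minus strand: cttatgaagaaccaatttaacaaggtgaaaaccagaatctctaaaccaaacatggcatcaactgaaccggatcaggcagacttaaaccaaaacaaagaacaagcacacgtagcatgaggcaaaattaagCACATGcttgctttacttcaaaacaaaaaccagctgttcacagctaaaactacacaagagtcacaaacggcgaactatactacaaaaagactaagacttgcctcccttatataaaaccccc
XTH18, chr4:14827212-14827461, minus strand: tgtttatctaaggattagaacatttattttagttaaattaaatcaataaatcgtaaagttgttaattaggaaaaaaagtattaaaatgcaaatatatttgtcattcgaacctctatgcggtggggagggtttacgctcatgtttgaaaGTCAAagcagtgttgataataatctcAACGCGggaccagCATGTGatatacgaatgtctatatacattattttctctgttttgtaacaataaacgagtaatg
EXLA1, chr3:16895916-16896165, plus strand: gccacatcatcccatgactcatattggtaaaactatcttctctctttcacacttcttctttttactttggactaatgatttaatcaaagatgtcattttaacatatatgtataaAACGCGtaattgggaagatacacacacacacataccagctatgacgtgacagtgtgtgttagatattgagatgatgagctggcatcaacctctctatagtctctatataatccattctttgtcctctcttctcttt
EXPA8, chr2:16950706-16950955, minus strand: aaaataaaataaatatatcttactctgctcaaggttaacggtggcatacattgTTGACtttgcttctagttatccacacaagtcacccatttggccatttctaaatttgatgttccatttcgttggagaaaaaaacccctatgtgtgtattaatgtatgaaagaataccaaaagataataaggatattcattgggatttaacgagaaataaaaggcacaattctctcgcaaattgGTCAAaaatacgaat

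The TCH4 stretch holds 1 W-box core, which lies 234 bases before the gene start on the opposite strand, and the XTH25 stretch holds 1 CACATG and no W-box core. XTH18 and EXLA1 both hold CGCGTT on the opposite strand, 76 and 136 bases before their starts. The EXPA8 stretch has W-box cores at 15 and 197 bases. Over the stretches of all 27443 protein-coding loci, CGCGTT was found in 2.59%, the W-box core in 44.9%, the G-box in 6.49% and CACATG in 11.1%. Among the 38 members, CGCGTT was found before 5 (XTH18, XTH20, EXPA6, EXLA1 and EXLA3), the W-box core before 15, CACATG before 7 and the G-box before none. Of the 9 members higher in PP2-A5oe, 2 had CGCGTT, and EXPA6 was the only 1 of the 8 lower members to have it. A match describes letters in the sequence and does not show that a factor binds there.

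Levels can be compared between genes only per length, so CPM was divided by the length in kb of the longest annotated transcript. In Col-0, XTH4 had the highest level per length of the tested members, with 544 ± 65.2 CPM per kb (SD, n = 3). It was followed by EXPA8 (231 ± 12.7 CPM per kb), the meristem-linked XTH24 (227 ± 23.1 CPM per kb) and XTH6 (208 ± 15.6 CPM per kb). The lowest was XTH18, with 1.93 ± 0.558 CPM per kb, 282 times below XTH4. Of the 32 pairs of neighbours in this order, 20 had overlapping replicate ranges and 12 did not. EXPA8, XTH24 and XTH6 could not be ordered by their replicates. Levels of genes with several annotated transcripts are less certain, since the counting unit of the table is not given in the sources used here. Over the protein-coding loci with a row in the table, the median total count fell from 580 for loci with 1 transcript to 206, 102.5 and 48 for loci with 2, 3 and 4 or more. Of the members, 25 have 1 annotated transcript and 13 have more, among them XTH4, XTH17, EXPA3, EXPA10, EXPA11, EXLA1 and EXPB1.

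**Figure D1:**
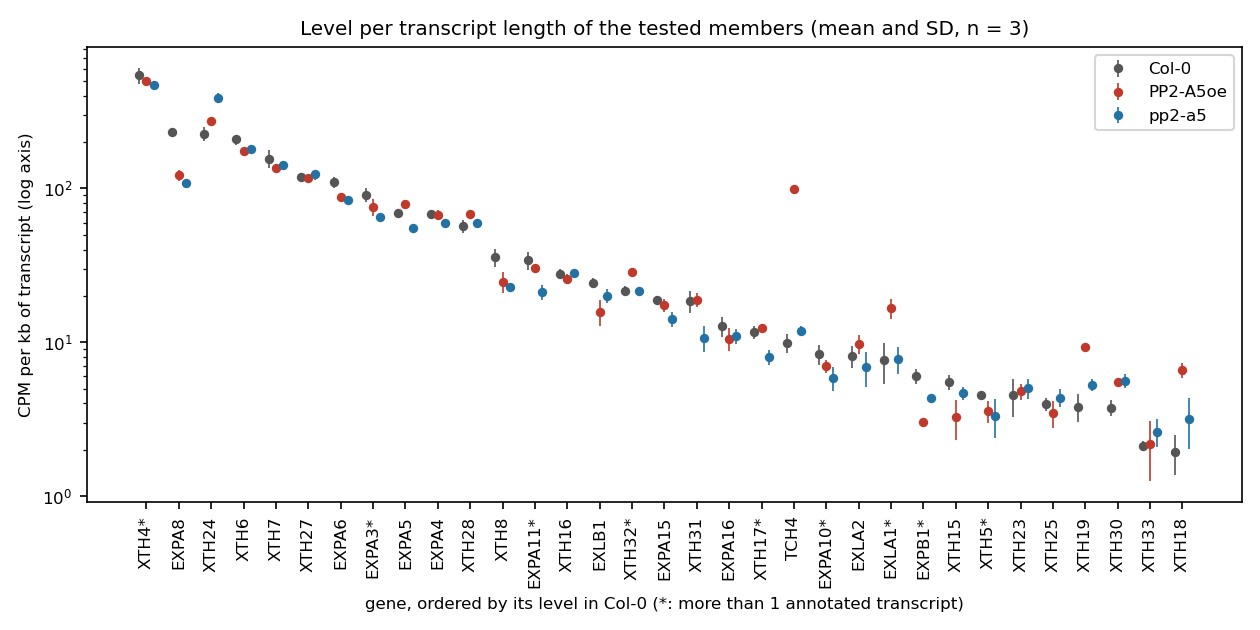
Level of each tested member in CPM per kb of its longest transcript on a log axis, ordered by Col-0; points are means and bars SD over 3 libraries of a group, and an asterisk marks genes with more than 1 annotated transcript. TCH4 is the member whose PP2-A5oe point stands farthest above its Col-0 point, and the EXPA8 points of both lines lie below that of Col-0.

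The question of the first comparison is how PP2-A5oe differed from Col-0. Of 33 members tested, 9 were higher (27.3%) and 8 lower (24.2%) at a Benjamini-Hochberg adjusted p under 0.05 in edgeR's quasi-likelihood test. Of all 13975 loci, 25% were called, 14.5% higher and 10.5% lower. A change of at least 1.5-fold was called for 4 members upward and 4 downward, and for 7.18% and 2.58% of all loci. XTH loci made up most of the rises, with 7 higher and 3 lower of 20, while 2 expansins were higher and 5 lower of 13. The median log2 fold change was -0.10 over the members and -0.02 over all loci tested. With upper-quartile scaling the members split into 7 higher and 10 lower, and all loci into 1769 higher and 2069 lower in place of 2027 and 1469. The members split into 9 higher and 7 lower without Col-0 replicate 3, and into 5 higher and 9 lower without Col-0 replicate 1. The replicate ranges of the groups did not overlap for 19 of the 33 members (57.6%), and for 36.8% of all loci.

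Set against Col-0, pp2-a5 had 2 members higher (6.06%) and 12 lower (36.4%), beside 12.3% higher and 8.47% lower of all loci, 20.8% in all. At a fold of at least 1.5, 2 members were higher and 4 lower, as were 6.28% and 1.7% of all loci. Of the expansins none was higher and 7 of 13 were lower, all of them alpha-expansins. All 9 alpha-expansins tested had estimates below 0, as had 12 of the 13 expansins and 7201 of the 13975 loci tested. In PP2-A5oe, estimates were below 0 for 8 of the 9 alpha-expansins, 10 of the 13 expansins and 7325 of the 13975 loci. In pp2-a5 the median log2 fold change was -0.21 over the members, -0.39 over the expansins and -0.01 over all loci tested. Both lines were compared with the same 3 Col-0 libraries, so a high or low Col-0 library moves both sets of values. Without Col-0 replicate 3, 4 members were higher and 10 lower in pp2-a5, and without Col-0 replicate 1 or pp2-a5 replicate 1, 1 was higher and 11 lower. Ranges did not overlap for 18 of the 33 members (54.5%), and for 33.7% of all loci.

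**Figure D2:**
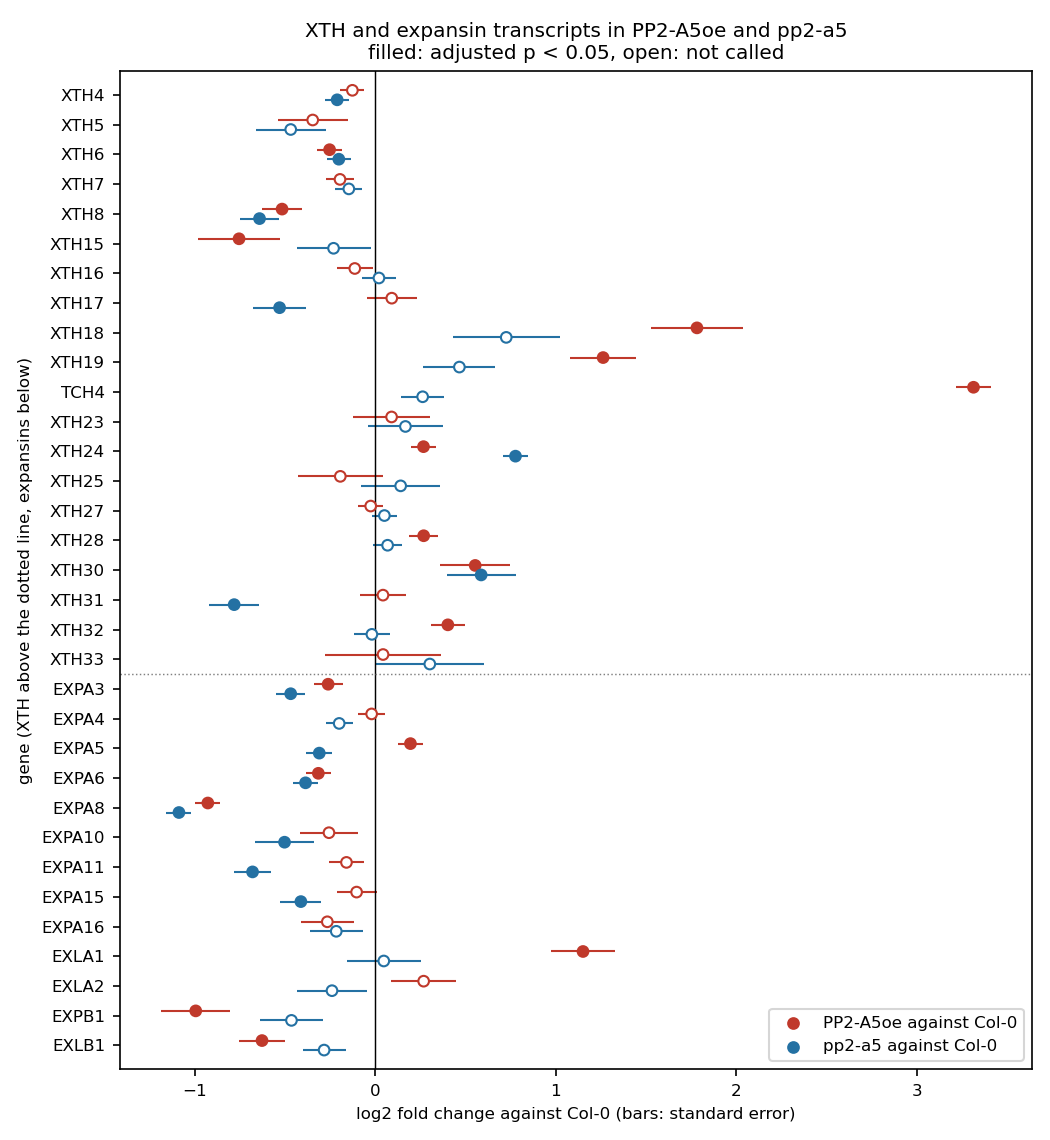
Log2 fold change (x axis) of the 33 tested members against Col-0, in red for PP2-A5oe and in blue for pp2-a5; bars are standard errors, and filled points have an adjusted p under 0.05. TCH4 lies at 3.31 in PP2-A5oe, and EXPA8 lies near -1 in both lines.

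Group II holds the members with the largest rises. Gene positions are those of the TAIR10.1 annotation. TCH4, or XTH22 (AT5G57560, chr5:23307006-23308680), a xyloglucan endotransglucosylase first found as a touch-induced gene, stood at 14.5, 14.6 and 18.3 CPM in the wild type replicates 1 to 3. In PP2-A5oe it stood at 153, 159 and 157 CPM, and in pp2-a5 at 20.4, 17.5 and 18.6 CPM. Each PP2-A5oe library was far above each library of the other groups, while pp2-a5 and Col-0 overlapped. TCH4 was 9.94-fold higher in PP2-A5oe than in Col-0 (log2 fold change 3.31 ± 0.09 SE, adjusted p = 2.48e-24 in edgeR). Against pp2-a5 the fold was 8.28 (log2 3.05 ± 0.09, adjusted p = 1.16e-23). In pp2-a5 the estimate was 0.26 ± 0.12 (adjusted p = 0.116 in edgeR), which passed the test without Col-0 replicate 3 (log2 0.37, adjusted p = 0.0272), with a range of 0.0272 to 0.344 over the alternatives. TCH4 made up 0.655% to 0.705% of the summed XTH level per length in the wild type and 6.36% to 6.67% in PP2-A5oe.

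XTH24 (AT4G30270, chr4:14819192-14820595), also known as MERI5, was the most abundant member of group II. Its levels were 252, 266 and 306 CPM in the wild type, 332, 345 and 313 CPM in PP2-A5oe, and 506, 462 and 443 CPM in the pp2-a5 mutant. The 3 groups did not overlap, with pp2-a5 highest and Col-0 lowest. XTH24 rose 1.71-fold in pp2-a5 (log2 0.78 ± 0.07, adjusted p = 1.49e-10 in edgeR) and 1.2-fold in PP2-A5oe (log2 0.27 ± 0.07, adjusted p = 0.00441). The difference between the lines was also called (log2 -0.51 ± 0.07 for PP2-A5oe against pp2-a5, adjusted p = 1.04e-06 in edgeR). Without Col-0 replicate 1, the rise in PP2-A5oe lost its call (adjusted p = 0.0644, the highest of a range from 2.13e-05). XTH24 took 14.9% to 16.1% of the summed XTH level per length in Col-0, 17.6% to 18.4% in PP2-A5oe and 25.3% to 26.7% in pp2-a5.

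XTH18 and XTH19 belong to a set of close relatives, XTH17 to XTH20, known from roots. XTH18 (AT4G30280, chr4:14825757-14827211) was measured at 1.77, 2.34 and 3.18 CPM in the wild type, 7.29, 8.47 and 9.16 CPM in PP2-A5oe, and 3.57, 5.62 and 2.81 CPM in the pp2-a5 mutant. PP2-A5oe was above both other groups in every library, and pp2-a5 overlapped Col-0. The rise in PP2-A5oe was 3.44-fold (log2 1.78 ± 0.26, adjusted p = 1.37e-06 in edgeR). In pp2-a5 the log2 estimate was 0.73 ± 0.30 (adjusted p = 0.0813). That estimate passed the test without Col-0 replicate 3 (adjusted p = 0.0336), without pp2-a5 replicate 3 (0.035) and without both Col-0 replicate 3 and replicate 2 of PP2-A5oe (0.0357), in a range of 0.0336 to 0.461.

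XTH19 (AT4G30290, chr4:14828712-14830224) followed the same order, with 5.32, 6.03 and 3.92 CPM in the wild type, 11.4, 13.0 and 12.6 CPM in PP2-A5oe, and 7.79, 6.61 and 6.88 CPM in the pp2-a5 mutant. No group overlapped another. The rise in PP2-A5oe was 2.40-fold (log2 1.26 ± 0.18, adjusted p = 1.34e-06 in edgeR), and the estimate in pp2-a5 was 0.47 ± 0.20 (adjusted p = 0.0992). Direct comparison of the lines put XTH18 at log2 1.06 ± 0.23 (adjusted p = 0.000889) and XTH19 at 0.80 ± 0.17 (adjusted p = 0.000721) higher in PP2-A5oe. XTH14, a root XTH outside the 38 members, had 3, 1 and 3 counts in Col-0, 23, 15 and 13 counts in PP2-A5oe and 8, 4 and 3 counts in pp2-a5. It passed the filter only through PP2-A5oe, so its fitted log2 change of 2.81 there is given as a description.

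Of the 10 root markers, 7 failed the filter. LRX1 (log2 1.57 ± 0.23, adjusted p = 2.68e-06 in edgeR) and PRP3 (1.89 ± 0.17, adjusted p = 1.42e-10), wall proteins of root hairs, rose in PP2-A5oe. CASP1, of the Casparian strip of the endodermis, passed the filter only through PP2-A5oe, where it had 17, 21 and 16 counts beside 4, 4 and 2 in Col-0 and 3, 9 and 6 in pp2-a5. PRP3 also rose in pp2-a5 (0.66 ± 0.20, adjusted p = 0.0177 in edgeR). That call was lost with DESeq2 (0.0568) and without Col-0 replicate 1 (0.0868), pp2-a5 replicate 1 (0.0675) or pp2-a5 replicate 2 (0.0611). Of the markers named here, EXPA7, EXPA18, COBL9 and MYB36 had 0 counts in Col-0 replicate 2, EXPA7 and EXPA18 also in Col-0 replicate 1, and EXPA7, COBL9 and WER had 0 counts in PP2-A5oe replicate 3. The part of root markers in the values of XTH14, XTH18 and XTH19 was not tested.

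XTH17 (AT1G65310, chr1:24257054-24258506), the closest relative of XTH18, moved otherwise. It stood at 13.1, 13.6 and 15.7 CPM in the wild type, 14.4, 14.4 and 16.1 CPM in PP2-A5oe and 8.60, 10.8 and 9.85 CPM in the pp2-a5 mutant. The pp2-a5 libraries lay below all others, and PP2-A5oe overlapped Col-0. XTH17 fell in pp2-a5 by 0.53 on the log2 scale (SE 0.15, adjusted p = 0.00833 in edgeR) and was higher in PP2-A5oe than in pp2-a5 (log2 0.62 ± 0.15, adjusted p = 0.00253). Without pp2-a5 replicate 1 the fall lost its call (adjusted p = 0.0545, the highest of a range from 0.00476). XTH17 has 2 annotated transcripts and lies 33.9 kb from PP2-A5 on chromosome 1. XTH20, the remaining gene of this set, failed the filter with 1 count in Col-0, 1 in PP2-A5oe and 3 in pp2-a5.

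XTH15 (AT4G14130, chr4:8137020-8138392), known from the shade response of leaf stalks, was the member of group II that fell in PP2-A5oe. Its levels were 6.29, 6.195 and 7.47 CPM in the wild type, 3.48, 5.23 and 3.11 CPM in PP2-A5oe, and 6.001, 4.96 and 5.94 CPM in the pp2-a5 mutant. Both lines lay below the Col-0 range, while the lines overlapped each other. The fall in PP2-A5oe was 1.69-fold (log2 -0.75 ± 0.23, adjusted p = 0.0116 in edgeR), and the estimate in pp2-a5 was -0.23 ± 0.20 (adjusted p = 0.487). DESeq2 (adjusted p = 0.0552) and the fits without PP2-A5oe replicate 1 (0.0629) or replicate 3 (0.073) did not call the fall, in a range of 0.00415 to 0.073. XTH15 overlaps a gene on the opposite strand over 382 bases, and without a stated strand setting reads of both cannot be told apart. The other group II members tested, XTH16, XTH23 and XTH25, passed the test in no comparison.

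Several of these genes are chromosome neighbours on the same strand. XTH24, XTH18 and XTH19 lie in a row on chromosome 4, 5161 and 1500 bases apart, and all 3 rose in PP2-A5oe. Their sizes differed, since XTH18 and XTH19 rose 3.44- and 2.40-fold where XTH24 rose 1.2-fold, and XTH24 alone of the 3 was called in pp2-a5. On chromosome 5, XTH25 ends 565 bases from TCH4. Where TCH4 changed 9.94-fold, XTH25 had 4.68 ± 0.434 CPM in the wild type, 4.09 ± 0.802 CPM in PP2-A5oe and 5.17 ± 0.684 CPM in the pp2-a5 mutant (SD, n = 3), with a log2 estimate of -0.19 ± 0.23 in PP2-A5oe (adjusted p = 0.605 in edgeR). XTH23, the closest relative of TCH4 with 82.4% identity over the coding sequence, lies 363 bases from XTH14 on chromosome 4. XTH23 stood at 6.21 ± 1.69 CPM in the wild type, 6.59 ± 0.795 CPM in PP2-A5oe and 6.91 ± 1.06 CPM in the pp2-a5 mutant, with a log2 estimate of 0.09 ± 0.21 in PP2-A5oe (adjusted p = 0.814 in edgeR).

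**Figure D3:**
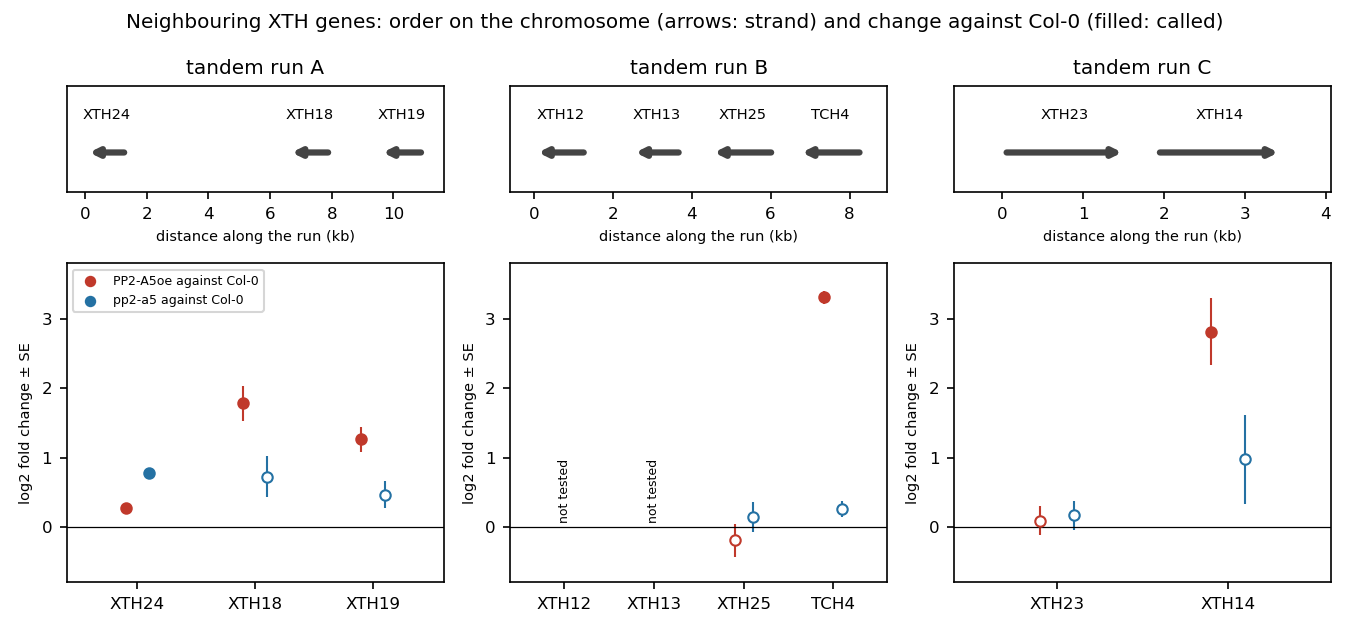
Top: 3 runs of neighbouring XTH genes drawn to scale in kb from the first gene, with arrows pointing along the strand. Bottom: log2 fold change against Col-0 with its standard error for the same genes, filled where the adjusted p was under 0.05. TCH4 at 3.31 and XTH14 at 2.81 in PP2-A5oe stand beside XTH25 at -0.19 and XTH23 at 0.09, and XTH14 passed the filter only through PP2-A5oe.

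Close relatives could share reads. The coding sequence of XTH18 was 92.2% identical to that of XTH17, with a longest exact run of 47 bases, and that of XTH19 was 89.2% identical to that of XTH18, with a longest run of 68 bases. For TCH4 and XTH23 the longest exact run was 24 bases. EXLA1 was 86.6% identical to EXLA3, with a run of 57 bases. How the authors assigned reads that fit several genes is not given in the sources used here, so the split of counts among XTH17, XTH18 and XTH19, and between EXLA1 and EXLA3, is uncertain.

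Group I holds XTH4, the XTH with the highest level per length in Col-0, and no member of it was called higher in either line. XTH8 (AT1G11545, chr1:3878495-3880391) stood at 39.2, 41.0 and 50.1 CPM in the wild type, 35.6, 26.9 and 28.0 CPM in PP2-A5oe, and 29.4, 28.3 and 25.6 CPM in the pp2-a5 mutant. All libraries of both lines lay below those of Col-0, and the lines overlapped. XTH8 fell in PP2-A5oe by 0.52 (SE 0.11, adjusted p = 0.000413 in edgeR) and in pp2-a5 by 0.64 (SE 0.11, adjusted p = 2.94e-05) on the log2 scale. XTH6 (AT5G65730) averaged 306 ± 22.9 CPM in the wild type, 256 ± 8.66 CPM in PP2-A5oe and 266 ± 16.7 CPM in the pp2-a5 mutant, with called log2 changes of -0.25 and -0.20. XTH4 (AT2G06850) averaged 841 ± 101 CPM in the wild type, 771 ± 19.9 CPM in PP2-A5oe and 727 ± 15.7 CPM in the pp2-a5 mutant, and the log2 change of -0.21 was called in pp2-a5 (adjusted p = 0.0209 in edgeR) and that of -0.13 was not called in PP2-A5oe (adjusted p = 0.175). The calls in pp2-a5 were sensitive to single libraries: that of XTH4 was lost without Col-0 replicate 3, pp2-a5 replicate 2 or pp2-a5 replicate 3 (adjusted p up to 0.159). That of XTH6 was lost without Col-0 replicate 1, Col-0 replicate 3, pp2-a5 replicate 2 or pp2-a5 replicate 3 (adjusted p up to 0.153).

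XTH7, at 201 ± 27.3 CPM in the wild type, 176 ± 5.73 CPM in PP2-A5oe and 182 ± 9.90 CPM in the pp2-a5 mutant, was the most abundant group I member not called. In PP2-A5oe it was called as lower with upper-quartile scaling (adjusted p = 0.0141), with no filter on low counts (0.0199) and without Col-0 replicate 1 (0.0409) or 2 (0.0135). XTH5 was not called in any comparison, though it was called as lower in pp2-a5 without pp2-a5 replicate 2 (log2 -0.72, adjusted p = 0.0185). XTH9 failed the filter with 1 count in all, in pp2-a5 replicate 2, where 3 counts of a library correspond to 0.469 to 0.56 CPM. XTH9 has 2 annotated transcripts.

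Group III combines enzymes of different activity, among them XTH31, which is linked to xyloglucan hydrolysis and to aluminium binding in root walls. XTH31 (AT3G44990, chr3:16446935-16448844) stood at 25.5, 21.6 and 30.1 CPM in the wild type, 27.4, 28.7 and 23.2 CPM in PP2-A5oe, and 17.7, 15.1 and 12.04 CPM in the pp2-a5 mutant. The pp2-a5 libraries were below all others, and PP2-A5oe and Col-0 overlapped. XTH31 fell 1.72-fold in pp2-a5 (log2 -0.78 ± 0.14, adjusted p = 5.13e-05 in edgeR), and its estimate in PP2-A5oe was 0.04 ± 0.13 (adjusted p = 0.852). The lines differed from each other by 0.82 ± 0.14 on the log2 scale (adjusted p = 2.99e-05 in edgeR).

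XTH30 (AT1G32170, chr1:11575320-11578030) had 4.52, 5.69 and 5.60 CPM in the wild type, 7.46, 7.39 and 8.30 CPM in PP2-A5oe, and 8.11, 6.94 and 8.60 CPM in the pp2-a5 mutant. Both lines lay above Col-0 in every library and overlapped each other. The log2 rise was 0.55 ± 0.20 in PP2-A5oe (adjusted p = 0.0343 in edgeR) and 0.59 ± 0.19 in pp2-a5 (adjusted p = 0.0258). DESeq2 called neither (adjusted p = 0.13 and 0.116). In PP2-A5oe, leaving out Col-0 replicate 1 or any PP2-A5oe replicate ended the call (adjusted p up to 0.152), and in pp2-a5, leaving out Col-0 replicate 1, pp2-a5 replicate 1 or pp2-a5 replicate 3 did so (adjusted p up to 0.134).

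XTH32 (AT2G36870) averaged 29.4 ± 2.36 CPM in the wild type, 38.9 ± 0.371 CPM in PP2-A5oe and 29.1 ± 1.66 CPM in the pp2-a5 mutant, and rose in PP2-A5oe by 0.40 ± 0.10 on the log2 scale (adjusted p = 0.00155 in edgeR). XTH28 (AT1G14720), known from the growth of stamen filaments, averaged 84.5 ± 8.25, 101.6 ± 5.56 and 88.5 ± 4.85 CPM in the wild type, PP2-A5oe and pp2-a5. Its log2 rise in PP2-A5oe was 0.27 ± 0.08 (adjusted p = 0.0102 in edgeR), and that call was lost without Col-0 replicate 1 (0.0632), Col-0 replicate 2 (0.0623) or PP2-A5oe replicate 1 (0.0601). XTH27, known from the veins of rosette leaves, stood at 184 ± 11.6 CPM in the wild type, 181 ± 12.2 CPM in PP2-A5oe and 190.4 ± 14.2 CPM in the pp2-a5 mutant and was not called. XTH33, predicted to be anchored in the plasma membrane, was not called either.

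Among the alpha-expansins, EXPA8 had the largest change. EXPA8 (AT2G40610, chr2:16948791-16950705) stood at 308, 288 and 322 CPM in the wild type, 176, 158 and 149 CPM in PP2-A5oe, and 149, 146 and 137 CPM in the pp2-a5 mutant. Every library of both lines was far below the lowest Col-0 library, and the lines overlapped at their edge. EXPA8 fell 1.90-fold in PP2-A5oe (log2 -0.93 ± 0.07, adjusted p = 6.28e-13 in edgeR) and 2.12-fold in pp2-a5 (log2 -1.09 ± 0.07, adjusted p = 2.38e-14). The difference between the lines was 0.16 ± 0.07 on the log2 scale (adjusted p = 0.152 in edgeR). Among the expansins with a row, EXPA8 made up 32.7% to 34.8% of the summed level per length in Col-0. Its share was 22.1% to 23.0% in PP2-A5oe and 23.3% to 23.6% in pp2-a5.

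EXPA11 (AT1G20190, chr1:6998335-6999839) had 43.5, 39.5 and 51.2 CPM in the wild type, 42.1, 37.9 and 39.8 CPM in PP2-A5oe, and 25.6, 31.4 and 26.6 CPM in the pp2-a5 mutant. The pp2-a5 libraries were below all others, and PP2-A5oe overlapped Col-0. Its fall in pp2-a5 was 1.60-fold (log2 -0.68 ± 0.10, adjusted p = 4.52e-06 in edgeR), and PP2-A5oe was higher than pp2-a5 by 0.52 ± 0.10 on the log2 scale (adjusted p = 0.000422). The estimate in PP2-A5oe against Col-0 was -0.16 ± 0.10 (adjusted p = 0.257 in edgeR).

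EXPA5 (AT3G29030), linked to brassinosteroid-driven growth, was called in opposite directions. It averaged 98.5 ± 2.21 CPM in the wild type, 113 ± 5.78 CPM in PP2-A5oe and 79.4 ± 3.72 CPM in the pp2-a5 mutant, and the 3 groups did not overlap. The log2 change was -0.31 ± 0.07 in pp2-a5 (adjusted p = 0.00171 in edgeR) and 0.20 ± 0.07 in PP2-A5oe (adjusted p = 0.0417), with 0.50 ± 0.07 between the lines (adjusted p = 2.21e-06). The rise in PP2-A5oe lost its call in 11 of 19 alternatives, among them DESeq2 (adjusted p = 0.088), upper-quartile scaling (0.128) and the fits without Col-0 replicate 1 (0.143), Col-0 replicate 2 (0.0627), PP2-A5oe replicate 1 (0.189), PP2-A5oe replicate 2 (0.0763) or pp2-a5 replicate 2 or 3 (0.0523 each). The fall in pp2-a5 and the difference between the lines were called in every alternative.

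EXPA3 and EXPA6 fell in both lines. EXPA6 (AT2G28950) averaged 174 ± 15.1 CPM in the wild type, 139.8 ± 6.11 CPM in PP2-A5oe and 133 ± 7.67 CPM in the pp2-a5 mutant, with log2 changes of -0.32 ± 0.07 (adjusted p = 0.000721 in edgeR) and -0.39 ± 0.07 (adjusted p = 6.82e-05). EXPA3 (AT2G37640) averaged 151 ± 15.8 CPM in the wild type, 126 ± 15.8 CPM in PP2-A5oe and 109 ± 4.32 CPM in the pp2-a5 mutant, with log2 changes of -0.26 ± 0.08 (adjusted p = 0.0158 in edgeR) and -0.47 ± 0.08 (adjusted p = 4.94e-05). Without Col-0 replicate 3 or PP2-A5oe replicate 3, the call of EXPA3 in PP2-A5oe was lost (adjusted p = 0.0528 and 0.16, in a range from 0.00191).

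EXPA10, which promotes the growth of leaves and leaf stalks, and EXPA15 fell in pp2-a5. EXPA10 (AT1G26770) averaged 12.9 ± 1.99 CPM in the wild type, 10.7 ± 1.02 CPM in PP2-A5oe and 9.05 ± 1.60 CPM in the pp2-a5 mutant, with log2 -0.50 ± 0.16 in pp2-a5 (adjusted p = 0.0246 in edgeR). EXPA15 (AT2G03090) averaged 26.9 ± 1.79 CPM in the wild type, 25.1 ± 2.41 CPM in PP2-A5oe and 20.3 ± 2.16 CPM in the pp2-a5 mutant, with log2 -0.41 ± 0.11 in pp2-a5 (adjusted p = 0.00795 in edgeR). DESeq2 did not call EXPA10 (adjusted p = 0.0902), nor did the fits without Col-0 replicate 3 (0.118), pp2-a5 replicate 2 (0.0719) or pp2-a5 replicate 3 (0.154), and EXPA15 was lost without pp2-a5 replicate 1 (0.0654). EXPA4, at 102 ± 4.21, 101 ± 7.43 and 89.1 ± 5.41 CPM in the wild type, PP2-A5oe and pp2-a5, was not called, and neither was EXPA16. The fall of EXPA4 in pp2-a5 passed the test in 5 of 19 alternatives, among them upper-quartile scaling (adjusted p = 0.0205) and the fit without Col-0 replicate 3 (0.0305).

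Of the smaller expansin families, EXLA1 rose and EXPB1 and EXLB1 fell in PP2-A5oe, and none of their members was called in pp2-a5. EXLA1 (AT3G45970, chr3:16896166-16897308), an expansin-like A gene, stood at 5.97, 6.53 and 10.08 CPM in the wild type, 18.1, 17.9 and 13.7 CPM in PP2-A5oe, and 9.08, 6.12 and 7.82 CPM in the pp2-a5 mutant. PP2-A5oe was above both other groups in every library, and pp2-a5 lay within the Col-0 range. EXLA1 rose 2.22-fold in PP2-A5oe (log2 1.15 ± 0.18, adjusted p = 5.24e-06 in edgeR), and the estimate in pp2-a5 was 0.05 ± 0.20 (adjusted p = 0.91). PP2-A5oe exceeded pp2-a5 by 1.10 ± 0.18 on the log2 scale (adjusted p = 1.36e-05 in edgeR). EXLA1 overlaps a gene on the opposite strand over 22 bases. Its relative EXLA2 stood at 9.13 ± 1.48 CPM in the wild type, 10.9 ± 1.54 CPM in PP2-A5oe and 7.72 ± 1.96 CPM in the pp2-a5 mutant and was not called. Between the lines, EXLA2 was higher in PP2-A5oe by 0.51 ± 0.19 on the log2 scale (adjusted p = 0.0712 in edgeR). Of 18 alternatives, 4 called that difference (adjusted p from 0.0391).

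EXPB1 (AT2G20750, chr2:8940833-8942706), a beta-expansin, had 8.55, 8.71 and 10.5 CPM in the wild type, 4.81, 4.69 and 4.32 CPM in PP2-A5oe, and 6.49, 6.45 and 7.04 CPM in the pp2-a5 mutant. The 3 groups did not overlap, with PP2-A5oe lowest. It fell 1.99-fold in PP2-A5oe (log2 -0.99 ± 0.19, adjusted p = 0.000133 in edgeR), and the estimate in pp2-a5 was -0.46 ± 0.17 (adjusted p = 0.0564), which upper-quartile scaling brought to 0.0371, the lowest of a range up to 0.213. EXLB1 (AT4G17030, chr4:9581562-9583290), the B-like expansin, had 27.9, 25.3 and 28.8 CPM in the wild type, 21.4, 16.2 and 15.2 CPM in PP2-A5oe, and 21.6, 25.1 and 20.6 CPM in the pp2-a5 mutant. Both lines lay below Col-0 and overlapped each other. EXLB1 fell 1.54-fold in PP2-A5oe (log2 -0.63 ± 0.13, adjusted p = 0.000216 in edgeR), and the estimate in pp2-a5 was -0.28 ± 0.12 (adjusted p = 0.0909). Between the lines neither EXPB1 (adjusted p = 0.0872 in edgeR) nor EXLB1 (0.0788) was called, though EXLB1 was without Col-0 replicate 3 (0.0426) or PP2-A5oe replicate 1 (0.0134).

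**Figure D4:**
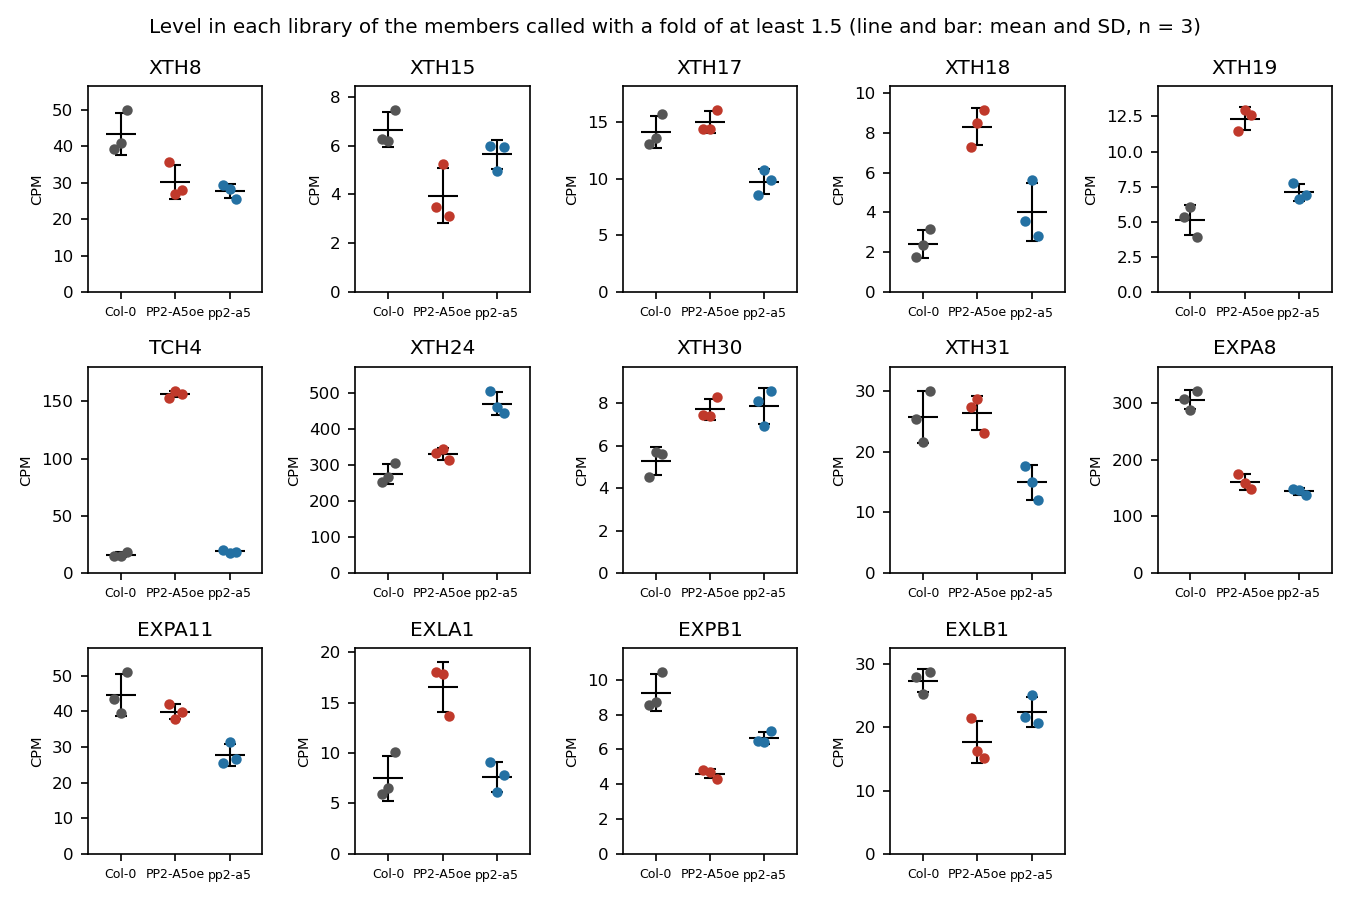
CPM in each library of the 14 members called with a fold of at least 1.5 in some comparison; points are libraries, lines and bars mean and SD over 3, and each panel has its own axis from 0. TCH4, XTH18, XTH19 and EXLA1 stand above both other groups in PP2-A5oe, XTH17, XTH31 and EXPA11 stand below both in pp2-a5, and EXPA8 is below Col-0 in both lines.

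Summed per length over the members with a row, 22 XTH and 13 expansin loci, the families gave different pictures. The expansin sum leaves out EXPA1, EXLA3 and EXPB3. The expansin sum was 669, 665 and 732 CPM per kb in Col-0, 577, 542 and 506 CPM per kb in PP2-A5oe, and 476, 473 and 444 CPM per kb in pp2-a5. The 3 groups did not overlap, and the means of the lines were 78.7% and 67.4% of that of Col-0. EXPA8 alone averaged 231, 121 and 109 CPM per kb in Col-0, PP2-A5oe and pp2-a5, beside mean expansin sums of 688, 542 and 464 CPM per kb. The XTH sum was 1466 ± 145 CPM per kb in Col-0, 1514 ± 38.0 CPM per kb in PP2-A5oe and 1500 ± 62.3 CPM per kb in pp2-a5, with overlapping groups. Within the XTH family, the sum of group II was 296 ± 27.9, 437 ± 16.1 and 459 ± 27.9 CPM per kb in Col-0, PP2-A5oe and pp2-a5, and both lines lay above Col-0 in every library. Group I gave 948 ± 104, 837 ± 14.7 and 817 ± 29.2 CPM per kb, with both lines below Col-0 in every library. Such sums are led by their most abundant members, XTH4 in group I, XTH24 in group II and EXPA8 among the expansins, and they carry no test. Within group II, XTH24 averaged 227, 273 and 388.5 CPM per kb in Col-0, PP2-A5oe and pp2-a5, and TCH4 averaged 9.93, 98.35 and 11.9. In PP2-A5oe TCH4 thus rose by more CPM per kb than XTH24, and in pp2-a5 XTH24 rose by more.

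**Figure D5:**
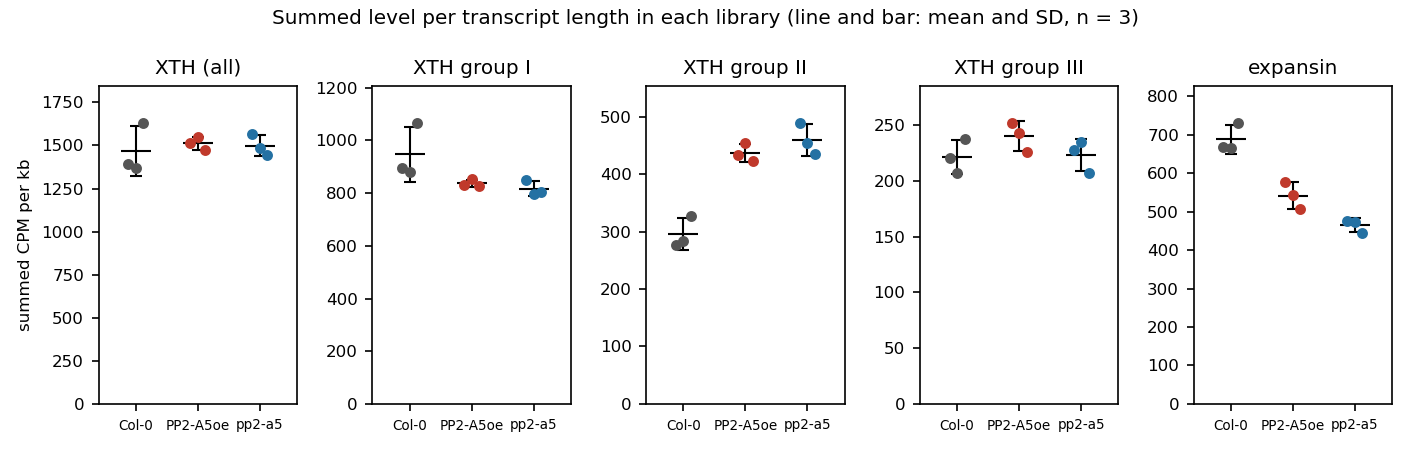
Summed CPM per kb of transcript over the XTH loci, XTH groups I to III and the expansins with a row in each library; points are libraries, lines and bars mean and SD over 3, and each axis starts at 0. The expansin sums of the 3 groups lie apart, at 665 to 732 in Col-0, 506 to 577 in PP2-A5oe and 444 to 476 in pp2-a5.

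The lines were also compared with each other. Of the 33 members, 9 were higher in PP2-A5oe than in pp2-a5 (27.3%) and 1 was lower (3.03%), where 7.21% and 5.45% of all loci, 12.7% in all, were called. The fold was at least 1.5 for 6 of the 9 higher members and under 1.5 for the lower one, while 2.9% of all loci were higher and 2.68% lower by at least that fold. Ranges did not overlap for 15 of the 33 (45.5%), and for 28.4% of all loci. The 9 were XTH17, XTH18, XTH19, TCH4, XTH31, XTH32, EXPA5, EXPA11 and EXLA1, and the lower member was XTH24. Although this comparison uses no Col-0 value, Col-0 libraries enter the shared estimate of the spread, and without Col-0 replicate 3 the counts were 12 higher and 2 lower. Without PP2-A5oe replicate 1 they were 9 and 2. XTH32 was higher in PP2-A5oe by 0.42 ± 0.09 on the log2 scale (adjusted p = 0.00161 in edgeR). The median log2 difference was 0.13 over the members and -0.0021 over all loci. Of the members called against Col-0 in both lines, XTH6, XTH8, XTH30, EXPA3, EXPA6 and EXPA8 were not called between the lines, with adjusted p from 0.105 to 0.95 in edgeR, which does not show that the lines were equal. EXPA3 was called there as higher in PP2-A5oe in fits of only the groups compared (adjusted p = 0.0383), without Col-0 replicate 3 (0.0376) and without PP2-A5oe replicate 3 (0.00794).

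Members tested and called in no comparison were 7 XTH loci (XTH5, XTH7, XTH16, XTH23, XTH25, XTH27 and XTH33) and 3 expansins (EXPA4, EXPA16 and EXLA2). Their log2 estimates against Col-0 were between -0.35 and 0.27 in PP2-A5oe and between -0.47 and 0.30 in pp2-a5. For PP2-A5oe against pp2-a5 they were between -0.33 and 0.51. Restricting the members to the 24 tested loci with 1 annotated transcript gave 7 higher and 6 lower in PP2-A5oe, 2 higher and 7 lower in pp2-a5, and 5 higher and 1 lower between the lines. Of all loci, 14.5% were higher and 10.5% lower in PP2-A5oe, 12.3% and 8.47% in pp2-a5, and 7.21% and 5.45% between the lines. The share over all loci with 1 annotated transcript was not taken.

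Genes that build and trim xyloglucan, the substrate of the XTH enzymes, were examined as a list of 14 loci, of which 12 were tested. In PP2-A5oe 2 were higher and 4 lower, and in pp2-a5 none was higher and 6 were lower, where 25% and 20.8% of all loci were called. DESeq2 called 5 in each line. XXT5, a xylosyltransferase, was 1 of the 2 higher genes and lost its call in 8 of 19 alternatives, and the falls of XLT2 and BGAL10 in pp2-a5 lost theirs in 4 each. CSLC4, the synthase of the glucan backbone, fell by 0.37 (SE 0.07, adjusted p = 0.000148 in edgeR) in PP2-A5oe and by 0.38 (SE 0.07, adjusted p = 0.000106) in pp2-a5 on the log2 scale. AXY8, a fucosidase that trims xyloglucan, fell by 0.26 in PP2-A5oe (SE 0.07, adjusted p = 0.00255 in edgeR) and by 0.34 in pp2-a5 (SE 0.07, adjusted p = 0.000128). XYL1, the alpha-xylosidase of xyloglucan, fell by 0.20 in PP2-A5oe (SE 0.06, adjusted p = 0.00977 in edgeR) and by 0.32 in pp2-a5 (SE 0.06, adjusted p = 9.67e-05). XLT2, a galactosyltransferase, was higher in PP2-A5oe than in pp2-a5 by 0.46 ± 0.07 (adjusted p = 2.85e-06 in edgeR). The median log2 change of the list was -0.19 in PP2-A5oe and -0.19 in pp2-a5.

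Of 8 genes for cellulose synthesis in the primary wall, CESA5, a cellulose synthase subunit, rose in PP2-A5oe (log2 0.34 ± 0.07, adjusted p = 0.000152 in edgeR), and none passed edgeR's test in pp2-a5, where 0 had an unadjusted p under 0.05 and DESeq2 and limma-voom called 0. CESA5 was also higher in PP2-A5oe than in pp2-a5 (log2 0.23 ± 0.07, adjusted p = 0.0161 in edgeR). That call was lost without PP2-A5oe replicate 2 (0.071) or pp2-a5 replicate 1 (0.121). Of all loci tested, 25% were called in PP2-A5oe, 20.8% in pp2-a5 and 12.7% between the lines. BR6OX2, an enzyme of brassinosteroid synthesis, was the only 1 of 7 tested genes of that pathway called, with log2 0.42 ± 0.13 in PP2-A5oe (adjusted p = 0.0135 in edgeR) and 0.41 ± 0.13 in pp2-a5 (adjusted p = 0.0188). Without Col-0 replicate 3 both calls were lost (adjusted p = 0.0992 and 0.115). Without PP2-A5oe replicate 1 the first was lost (0.0677), and without pp2-a5 replicate 1 (0.0679) or replicate 3 (0.0621), or with DESeq2 (0.0684), the second was.

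TCH2, a calmodulin-like touch gene, was the 1 touch gene beside TCH4 that could be tested. It stood at 33.4, 32.8 and 32.5 CPM in the wild type, 196, 196 and 170.0 CPM in PP2-A5oe, and 47.2, 49.3 and 47.1 CPM in the pp2-a5 mutant. The 3 groups did not overlap. TCH2 rose by 2.51 ± 0.08 in PP2-A5oe (adjusted p = 8.95e-23 in edgeR) and by 0.54 ± 0.09 in pp2-a5 (adjusted p = 1.51e-05) on the log2 scale. TCH2 overlaps a gene on the opposite strand over 723 bases and has 2 annotated transcripts.

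Of 11 XTH loci outside the 38 members, 8 had a row and 2 were tested, XTH14 above and XTH10, which fell in PP2-A5oe (log2 -0.98 ± 0.34, adjusted p = 0.0311 in edgeR). DESeq2 did not call that fall (adjusted p = 0.131), and leaving out Col-0 replicate 1 (0.0627), Col-0 replicate 2 (0.1), PP2-A5oe replicate 1 (0.167) or PP2-A5oe replicate 2 (0.0769) ended it. Of 12 other expansin loci, 9 had a row and 4 were tested, and none was called in any comparison by edgeR, DESeq2 or limma-voom, with an unadjusted p under 0.05 for 0 in PP2-A5oe and for 1 in pp2-a5.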

How the data were processed

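RNA of 9 libraries was analysed, 3 for each genotype. Per the labels' protocols, RNA was isolated on RNeasy columns, treated with DNase, enriched with oligo(dT) and primed with random hexamers. The authors deposited raw counts per locus, with TAIR 10 as the build per the submitters' processing notes. Which aligner, counter, gene models and strand setting made them is not given in the sources used here.

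Of 22449 entries, 294 loci had 2 and were summed. Tests ran on edgeR 4.0.16 under R 4.3.3 (filterByExpr with minimum count 10 and total 15, TMM, robust quasi-likelihood fit of all 9 libraries leaving 6 residual degrees of freedom). The biological coefficient of variation was 6.89%, and tested loci held 99.76% of the counts. P-values were adjusted by Benjamini-Hochberg over all loci tested. They set a difference between groups only against the spread among these samples within the groups. An exact permutation test of 3 against 3 cannot go below p = 0.1. Counting floors (3 counts) cover counting error only. Alternatives used limma 3.58.1 and DESeq2 1.42.0. Names, lengths and sequences came from RefSeq's TAIR10.1 annotation, which matched all 38 members, read with Python 3.11.15, Biopython 1.88 and pysam 0.24.0, and plots were drawn with matplotlib 3.10.9. The members and the 10 lists of other genes were chosen with earlier results of these data known. Members called with a fold of at least 1.5 in some comparison were given in every library, other called members by group means, and from each list up to 2 called loci with the smallest adjusted p or, where none was called, the most abundant. Replicate numbers did not pair the samples (correlations of same-numbered samples from -0.18 to 0.062).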

Additional observations from a re-analysis of the deposited data

How the results depend on the processing

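Results were recomputed with limma-voom, DESeq2, other scalings (upper-quartile, RLE), another or no filter on low counts, fits of only the groups compared, an adjusted p under 0.01, entries kept separate, the replicate number as a block, and each library or the pair with the highest mitochondrial share left out. The count of members higher in pp2-a5 (2) was 1 with DESeq2, the stricter filter or an adjusted p under 0.01, from 1 to 4 with a library left out (1 without Col-0 replicate 1 or pp2-a5 replicate 1, 4 without Col-0 replicate 3), and 4 without the pair. Members higher in PP2-A5oe (9) were from 5 to 9 with a library left out, with 5 without Col-0 replicate 1. The 1 member lower in PP2-A5oe than in pp2-a5 became 1 to 2, with 2 without Col-0 replicate 3, without PP2-A5oe replicate 1 and without the pair. In each case the cause was not tested. With upper-quartile scaling the split in PP2-A5oe was 7 higher and 10 lower, the median of all loci shifting by -0.048. The median level of the 33 tested members, taken in each Col-0 library and averaged over the 3, was 19.7 CPM per kb. It became 17.0 with merged exon lengths, which by construction are never shorter than the longest transcript.

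Of the called members, 11 of 17 in PP2-A5oe, 8 of 14 in pp2-a5 and 10 of 10 between the lines kept their call in every alternative at the same threshold. No called member changed direction in them. With the replicate number as a block, members split into 8 higher and 8 lower in PP2-A5oe, 2 and 11 in pp2-a5, and 9 and 1 between the lines. Members under about 10 CPM rest on few reads, XTH18 on 11 to 53 counts per library, which limits what was detectable there.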

Other observations

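Marker lists of other cells gave the following values, with no explanation offered. Of 5 guard cell genes tested, EPF1, an early stomatal regulator, fell in PP2-A5oe (log2 -0.98 ± 0.27, adjusted p = 0.00586 in edgeR), and KAT1, a potassium channel of guard cells, fell in pp2-a5 (log2 -0.32 ± 0.10, adjusted p = 0.0147). The summed guard cell markers overlapped in all 3 groups, at 151.0 to 173.6 CPM. The call of KAT1 was lost without Col-0 replicate 1 (adjusted p = 0.1), pp2-a5 replicate 1 (0.0951) or pp2-a5 replicate 2 (0.0502). Of the 3 leaf markers tested, LHCB3 and PSAD1, proteins of the photosystems, fell in both lines, LHCB3 by 0.16 in PP2-A5oe (adjusted p = 0.0397 in edgeR) and by 0.18 in pp2-a5 (0.0253), and PSAD1 by 0.20 (0.0127) and by 0.22 (0.00899) on the log2 scale. The call of LHCB3 was lost in 9 of 19 alternatives in PP2-A5oe (adjusted p up to 0.308) and in 5 in pp2-a5 (up to 0.197), in both lines without Col-0 replicate 3 (0.165 and 0.127). That of PSAD1 was lost in PP2-A5oe without Col-0 replicate 2 (0.057) or PP2-A5oe replicate 3 (0.101), and in pp2-a5 without pp2-a5 replicate 3 (0.0822). LHCB2.1 was not called against Col-0 (log2 0.07 ± 0.06 in PP2-A5oe, adjusted p = 0.399 in edgeR, and -0.12 ± 0.06 in pp2-a5, 0.151). With upper-quartile scaling its fall in pp2-a5 was called (0.0479). LHCB2.1 was higher in PP2-A5oe than in pp2-a5 (log2 0.19 ± 0.06, adjusted p = 0.0218 in edgeR). That call was lost without PP2-A5oe replicate 1 (0.139) or 2 (0.125), or pp2-a5 replicate 2 (0.0692) or 3 (0.136). No flower marker of 3 tested was called by edgeR, DESeq2 or limma-voom, with AP1 alone at an unadjusted p under 0.05, in PP2-A5oe.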
